A study of Bos taurus with 15 samples.

Results

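The genes described here run the calcium signal of the oocyte: the inositol trisphosphate receptors ITPR1, ITPR2 and ITPR3, the store pump ATP2A2, the store-operated entry proteins STIM1 and ORAI1, the kinase CAMK2G, and the calcineurin subunits PPP3CA, PPP3CB and PPP3R1. They were chosen by gene name from a list of 10, and 8 of these names matched a row of the expression table of 24616 genes. PPP3CB and PPP3R1 are not analysed here. No measured value stands in the rule, but the list was drawn up with results of these libraries known, including their differences between groups. Fold changes and adjusted p-values below therefore describe these libraries and are no independent evidence. PPP3CA was the 1 member that passed the test in any comparison: it fell in helium-vitrified oocytes relative to nitrogen-vitrified ones, where 0.663% of all tested genes were called. The call was lost in 8 of the 12 fits that left out 1 library and with a term for depth, and depth and coolant went together in these libraries. It was also lost with a replicate block, in which helium 5.6 M rested on 1 library.

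RNA sequencing was done on bovine (Bos taurus) oocytes in 15 libraries, 3 in each of 5 groups. The groups were oocytes vitrified in liquid helium at a cryoprotective agent concentration of 5.6 M, in liquid helium at 6.6 M, in liquid nitrogen at 5.6 M and in liquid nitrogen at 6.6 M, and fresh oocytes. All groups shared in vitro maturation for 22 to 24 h at 38.5 °C with gonadotrophins and follicular fluid, and the removal of cumulus cells with hyaluronidase afterwards, per the labels, although the series title calls the oocytes immature. Vitrification is cooling so fast that a concentrated solution turns to glass without ice, and liquid helium is colder than liquid nitrogen. RNA was extracted from single cells and amplified before library building, per the labels, which do not say whether a library held 1 oocyte or whether vitrification came before maturation. The labels name neither the cryoprotective agent nor the age or number of the animals. Nothing says that the libraries of a group came from separate animals, so every p-value reflects how far these libraries varied, and that variation may be technical.

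At fertilisation, a phospholipase brought by the sperm makes inositol trisphosphate, which opens ITPR channels in the endoplasmic reticulum and releases stored calcium into the egg. The pump ATP2A2 (SERCA) returns calcium to the store, and STIM1, a sensor of an emptied store, opens the ORAI1 channel of the plasma membrane to refill it. Calmodulin passes the signal on to the kinase CAMK2G, which in mouse eggs is required for leaving meiosis, and to the phosphatase calcineurin, which in frog eggs takes part in the same exit. PPP3CA and PPP3CB are catalytic subunits of calcineurin and PPP3R1 is its calcium-binding regulatory subunit.

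Library totals ranged from 6346848 to 8569618 counts in the 6 helium libraries, from 1790900 to 7392972 in the 6 nitrogen libraries and from 1601519 to 2822837 in the 3 fresh libraries. All 6 helium libraries and nitrogen 6.6 M library 3 held at least 5000000 counts, and the other 8 libraries fewer, so depth moved with the coolant. All 12 oocyte markers found in the table had counts in every group, and they summed to 27071 to 38412 CPM (counts as a rate of the library total) in vitrified libraries and 24010 to 33810 CPM in fresh ones. The 18 cumulus and granulosa markers found summed to 335 to 625 CPM in helium libraries, 359 to 413 in nitrogen libraries and 362 to 511 in fresh libraries. HAS2, STAR and PTGS2 made up most of these sums. Of the 18, 11 had a higher and 5 a lower mean in helium than in nitrogen libraries, 7 passed the filter, and edgeR called 0 of these. TIMP1 averaged 26.9 CPM in helium and 0.728 in nitrogen libraries (edgeR adjusted p = 0.157), and TNFAIP6 9.23 CPM in helium and 0.236 in nitrogen libraries (edgeR adjusted p = 0.105). VIM, CYP11A1, KRT18 and INHA, below the filter, also had higher means in helium libraries, and HAS2, PTGS2, STAR, CYP19A1 and INHBA had lower ones. Helium 6.6 M library 2 held 116, 44, 28 and 31 counts of VIM, CYP11A1, KRT18 and INHA. No other helium library held more than 15 counts of any of these. Nitrogen 6.6 M library 3, of similar depth, held 20 counts of VIM and 0 of CYP11A1, KRT18 and INHA. Helium 6.6 M library 2 also had the highest marker sum, 625 CPM, and 129.6 CPM of TIMP1. FSHR and FOXL2 were at 0 in all 15 libraries. The 9 blood and immune markers found summed to 4.19 to 14.5 CPM in vitrified libraries and 1.42 to 7.90 CPM in fresh ones. A level is a share of a library's counts, so less RNA of a gene per oocyte and fewer cells that carry it cannot be told apart.

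Levels were compared between genes as FPKM (fragments scaled by gene length and by library total), which the authors deposited beside the counts. The store pump stood far above the other members. ATP2A2 averaged 158 ± 21.6 FPKM (SD, n = 15 libraries), rank 732 of the 16294 genes with any count. CAMK2G followed at 15.9 ± 4.05 FPKM (rank 3702), and this order of the first and second member held in 15 of 15 libraries. PPP3CA averaged 4.94 ± 1.68 FPKM (rank 5894). ITPR1 averaged 3.91 ± 0.963 FPKM (rank 6352) and STIM1 3.22 ± 1.64 (rank 6753). ITPR2 stood at 1.89 ± 0.395 FPKM (rank 7868) and ORAI1 at 0.922 ± 0.388 (rank 9198). ITPR3 was the lowest member in 15 of 15 libraries, at 0.0575 ± 0.0730 FPKM (rank 13809).

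**Figure D1:**
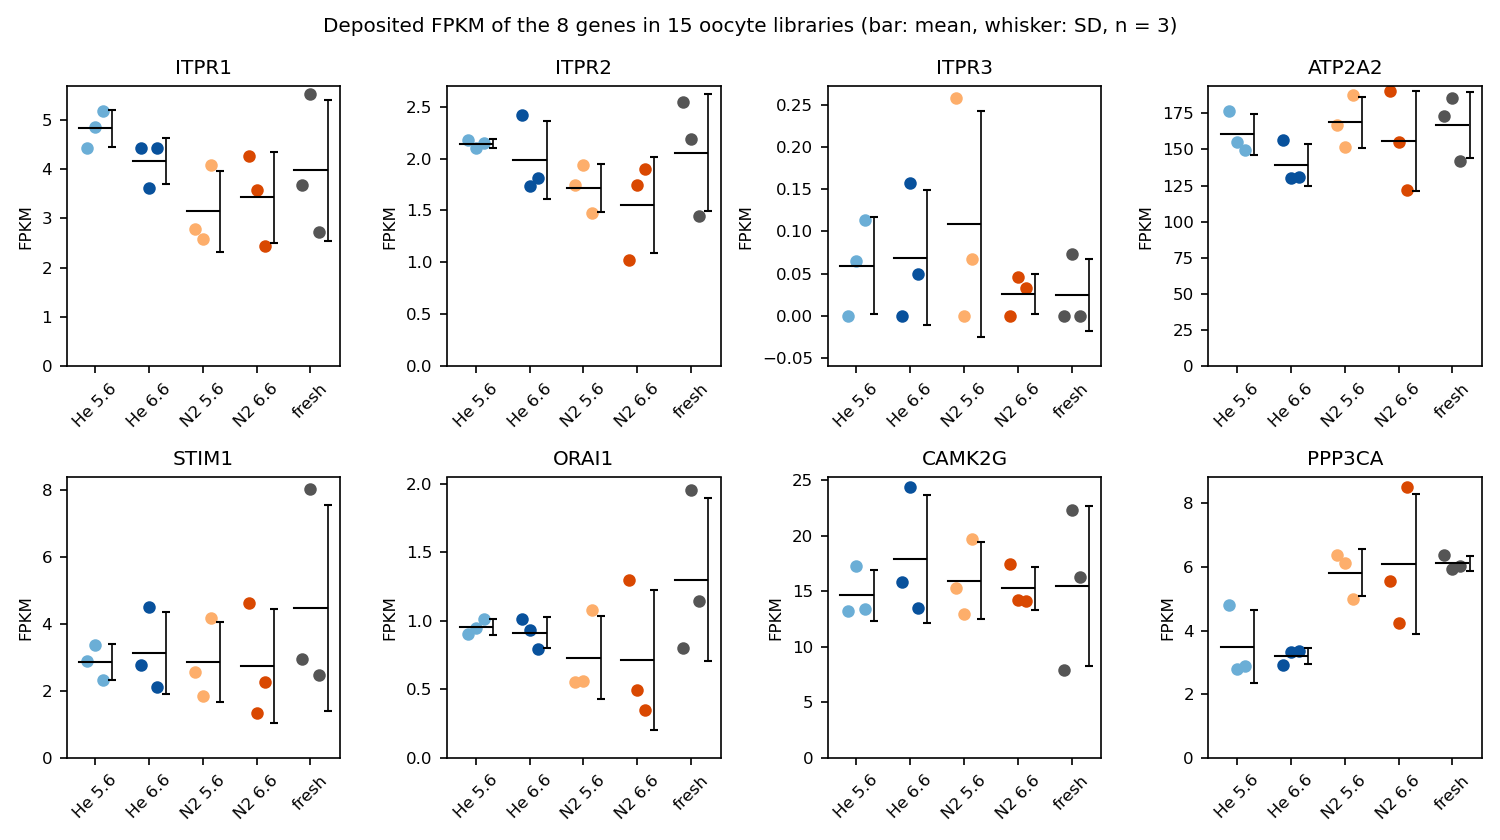
Deposited FPKM (y axis, from 0, ITPR3 with space under 0) of the 8 genes in helium 5.6 M, helium 6.6 M, nitrogen 5.6 M, nitrogen 6.6 M and fresh libraries (x axis, left to right); points are libraries, black lines means and whiskers SD (n = 3). PPP3CA sits at 2.78 to 4.81 FPKM in helium libraries, against 4.23 to 8.50 in nitrogen and 5.94 to 6.37 in fresh libraries. Only its helium and fresh ranges are apart, and in the other panels the ranges of helium, nitrogen and fresh libraries all overlap.

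The release channels let calcium out of the store, and the first of them was the highest. ITPR1, the main receptor of mammalian eggs (ENSBTAG00000020455, chromosome 22, 21615593 to 21838921 on UMD3.1), had 4.43, 4.86 and 5.19 FPKM in helium 5.6 M libraries and 4.42, 3.62 and 4.43 in helium 6.6 M libraries. It had 2.78, 2.57 and 4.08 FPKM in nitrogen 5.6 M libraries, 4.27, 3.57 and 2.44 in nitrogen 6.6 M libraries and 3.68, 5.52 and 2.72 in fresh ones. The 6 helium libraries ran from 3.62 to 5.19 FPKM, and 4 of 6 nitrogen libraries lay below every helium library. Fresh libraries, at 2.72 to 5.52 FPKM, overlapped with both. The order of group means ran from helium 5.6 M (4.83 ± 0.378) over helium 6.6 M (4.16 ± 0.464), fresh (3.97 ± 1.43) and nitrogen 6.6 M (3.43 ± 0.924) to nitrogen 5.6 M (3.15 ± 0.819), and only the first step, between both helium groups, was larger than the SD of its groups. Between helium and nitrogen the log2 fold change of ITPR1 was 0.38 (SE 0.17, 95% interval 0.01 to 0.74), and it did not pass (edgeR adjusted p = 0.294).

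ITPR2, the receptor with the highest affinity for inositol trisphosphate in mammals (chromosome 5, 83398954 to 83986176), had 2.18, 2.10 and 2.15 FPKM in helium 5.6 M libraries and 2.42, 1.73 and 1.81 in helium 6.6 M libraries. It had 1.75, 1.93 and 1.47 FPKM in nitrogen 5.6 M libraries, 1.02, 1.74 and 1.90 in nitrogen 6.6 M libraries and 2.54, 2.19 and 1.44 in fresh ones. No neighbouring pair of group means differed by more than the SD of its groups. ITPR1 exceeded ITPR2 in 15 of 15 libraries, and it made up 66.2% ± 6.65 (SD, n = 15) of the FPKM of the 3 receptors. That share was 66.5% ± 7.05 in vitrified libraries (n = 12) and 65.1% ± 5.91 in fresh ones (n = 3).

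ITPR3 (chromosome 23, 7687261 to 7756803) was at the limit of detection. It had 0 to 9 counts per library and 32 counts in all, with counts in 9 of 15 libraries. Fresh libraries held 0, 1 and 0 counts, and a count of 0 in the shallowest of them allows up to 0.226 FPKM (3 counts, for counting error only). The highest value, 0.258 FPKM in nitrogen 5.6 M library 1, rested on 5 counts. ITPR3 did not pass the filter on low counts and was not tested.

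ATP2A2, the pump that refills the store (chromosome 17, 56458750 to 56512895), had 177, 155 and 150 FPKM in helium 5.6 M libraries and 156, 130 and 131 in helium 6.6 M libraries. It had 167, 152 and 187 FPKM in nitrogen 5.6 M libraries, 190, 155 and 122 in nitrogen 6.6 M libraries and 173, 186 and 142 in fresh ones. The groups overlapped throughout, and every step in the order of group means was within the SD. ATP2A2 varied least of the members, with a coefficient of variation of 13.7% over 15 libraries. It also had the most counts, 1172 to 6400 per library, and the part of counting error in this order was not tested. Practically all pump transcript of its family was ATP2A2, since ATP2A3 had no count in any library and ATP2A1 had 1 count in all. The difference between vitrified and fresh oocytes was -0.12 on the log2 scale (SE 0.15, 95% interval -0.43 to 0.19, edgeR adjusted p = 0.799).

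STIM1, the sensor of the emptied store (chromosome 15, 51845122 to 52049569), had 2.91, 3.37 and 2.32 FPKM in helium 5.6 M libraries and 2.78, 4.51 and 2.11 in helium 6.6 M libraries. It had 2.56, 1.85 and 4.18 FPKM in nitrogen 5.6 M libraries, 4.64, 1.34 and 2.26 in nitrogen 6.6 M libraries and 2.96, 8.04 and 2.47 in fresh ones. Each of the groups overlapped with every other, and 1 library, fresh library 2, lay well above the rest. The log2 fold change of STIM1 between vitrified and fresh oocytes was -0.58 (SE 0.32, 95% interval -1.26 to 0.09, edgeR adjusted p = 0.455), and without fresh library 2 it was -0.11 (adjusted p = 0.914). Its relative STIM2, which senses smaller losses of store calcium, was the higher of the pair in 15 of 15 libraries, and STIM1 made up 23.8% ± 6.72 (SD, n = 15) of their FPKM.

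ORAI1, the entry channel that STIM1 opens (chromosome 17, 55858843 to 55873788), rested on few counts. It had 9 to 12 counts in each helium library, 2 to 4 in each nitrogen library and 2, 5 and 5 in fresh libraries. The 4 counts of nitrogen 6.6 M library 3, which was as deep as the helium libraries, gave the lowest level. On the FPKM scale it stood at 0.791 to 1.01 in helium libraries, 0.348 to 1.296 in nitrogen libraries and 0.804 to 1.96 in fresh libraries. These ranges overlapped. ORAI1 did not pass the filter on low counts and was not tested.

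CAMK2G, the gamma subunit of calmodulin-dependent kinase II (chromosome 28, 29878540 to 29930559), had 13.2, 17.3 and 13.4 FPKM in helium 5.6 M libraries and 15.8, 24.4 and 13.5 in helium 6.6 M libraries. It had 15.3, 12.9 and 19.7 FPKM in nitrogen 5.6 M libraries, 17.5, 14.2 and 14.1 in nitrogen 6.6 M libraries and 7.92, 22.3 and 16.3 in fresh ones. Fresh libraries held both the lowest value and the second highest, so the vitrified libraries, apart from helium 6.6 M library 2, fell inside the fresh range. CAMK2G differed little between vitrified and fresh oocytes in the fit, with a log2 fold change of 0.01 (SE 0.22, 95% interval -0.45 to 0.48, edgeR adjusted p = 0.988). Among the subunit genes of the kinase CAMK2G held 70.8% ± 6.62 of the FPKM in vitrified libraries (n = 12) and 77.3% ± 8.29 in fresh ones (n = 3), and it exceeded CAMK2D in 15 of 15 libraries.

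PPP3CA, the alpha catalytic subunit of calcineurin (ENSBTAG00000016005, chromosome 6, 24812682 to 25136247), had 4.81, 2.78 and 2.88 FPKM in helium 5.6 M libraries and 2.92, 3.32 and 3.36 in helium 6.6 M libraries. It had 6.37, 6.12 and 4.98 FPKM in nitrogen 5.6 M libraries, 5.56, 4.23 and 8.50 in nitrogen 6.6 M libraries and 6.37, 5.94 and 6.02 in fresh ones. All 6 helium libraries lay below all 3 fresh libraries, and 5 of 6 lay below every nitrogen library. The exceptions were helium 5.6 M library 3 and nitrogen 6.6 M library 2, which overlapped on the FPKM scale. On the TMM scale (library totals corrected by trimmed mean), these 2 libraries stood at 10.547 and 10.562 CPM, so that the coolants met without overlap.

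The mean of PPP3CA was 3.35 ± 0.756 FPKM in helium libraries and 5.96 ± 1.47 in nitrogen libraries (SD, n = 6 each), beside 6.11 ± 0.226 in fresh libraries (n = 3). In the order of group means, fresh, nitrogen 6.6 M and nitrogen 5.6 M were within their SD of each other, as were helium 5.6 M and helium 6.6 M. The step between nitrogen 5.6 M (5.82 ± 0.740) and helium 5.6 M (3.49 ± 1.14) was 2.33 FPKM, larger than the SD of its groups and without overlap. PPP3CA fell in helium oocytes relative to nitrogen oocytes by 0.96 on the log2 scale (SE 0.20, 95% interval -1.38 to -0.53, edgeR adjusted p = 0.0296), a level 0.515 times that in nitrogen. The rank of PPP3CA by p was 43 among 8441 tested genes, of which 0.663% were called in this comparison.

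The call passed under some settings and not under others. It held by DESeq2 (adjusted p = 0.00268), without a filter on low counts (edgeR adjusted p = 0.00738) and with only the groups compared (edgeR adjusted p = 0.0134). It passed in 4 of the 12 fits that left out 1 library and not in the other 8, with log2 fold changes of -1.09 to -0.77 and edgeR adjusted p of 0.0324 to 0.137. Without nitrogen 6.6 M library 3, the deepest nitrogen library and the one with most PPP3CA, the difference was -0.77 (edgeR adjusted p = 0.137), and without helium 6.6 M library 2, the one with most cumulus marker counts, it was -0.95 (edgeR adjusted p = 0.0607). The cumulus marker TIMP1 was set beside PPP3CA in each helium library. Helium 5.6 M libraries 3, 4 and 5 held 11.3, 0.936 and 12.9 CPM of TIMP1 and 4.81, 2.78 and 2.88 FPKM of PPP3CA. Helium 6.6 M libraries 1, 2 and 3 held 0, 129.6 and 6.68 CPM of TIMP1 and 2.92, 3.32 and 3.36 FPKM of PPP3CA. The part of cumulus RNA in the difference was not tested further. Helium and depth went together. Among the 7 libraries with at least 5000000 counts, PPP3CA stood at 3.35 ± 0.756 FPKM in the 6 helium libraries and at 8.50 in the 1 nitrogen library. Among the 8 shallower libraries, it stood at 5.45 ± 0.869 FPKM in nitrogen (n = 5) and 6.11 ± 0.226 in fresh libraries (n = 3), with no helium library to compare. A fit with a term for depth class, in which nitrogen 6.6 M library 3 is the 1 deep library outside helium, put the difference at -1.57 (SE 0.34, edgeR adjusted p = 0.0605). Blocking on library number gave -0.84 and lost the call, although the numbers are not shown to pair these libraries. Numbers 4 and 5 occur only in helium 5.6 M, so with the block that group rested on library 3. That library held the most PPP3CA of the helium libraries, 4.81 FPKM, against 2.78 and 2.88 in helium 5.6 M libraries 4 and 5.

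**Figure D2:**
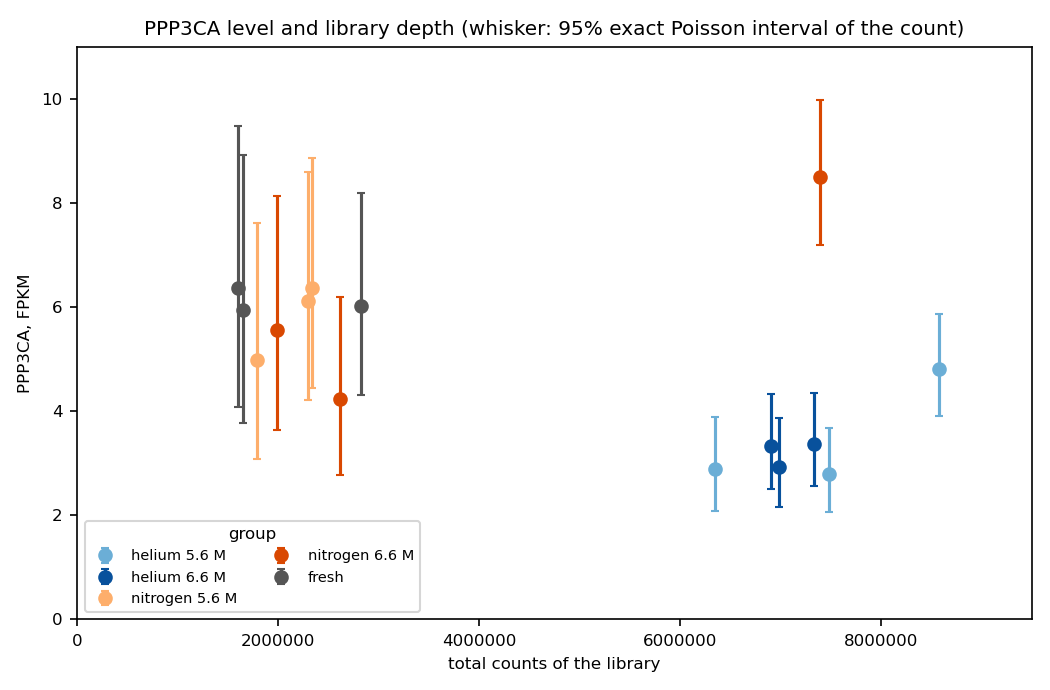
PPP3CA level in FPKM (y axis) against the total counts of each library (x axis), coloured by group; whiskers are 95% exact Poisson intervals of the count, covering counting error only. The 6 helium libraries lie at 2.78 to 4.81 FPKM on the deep side, nitrogen 6.6 M library 3 lies at 8.50 FPKM at a similar depth, and the 5 other nitrogen and 3 fresh libraries lie at 4.23 to 6.37 FPKM on the shallow side.

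Counting error alone was wide for PPP3CA in the shallow libraries. In nitrogen 5.6 M library 3, 21 counts gave 4.98 FPKM with a 95% exact Poisson interval of 3.08 to 7.61. In nitrogen 6.6 M library 3, 148 counts gave 8.50 FPKM with an interval of 7.19 to 9.99, above the upper bound of every helium library, the highest of which was 5.87 FPKM. PPP3CC, the gamma catalytic subunit, stood at 1.85 ± 0.681 FPKM in helium and 1.20 ± 0.746 in nitrogen libraries (n = 6 each, log2 fold change 0.69, SE 0.35, edgeR adjusted p = 0.343). PPP3CA therefore made up 60.0% to 68.2% of the FPKM of both genes in helium libraries, 71.1% to 93.0% in nitrogen libraries and 59.6% to 90.0% in fresh ones. PPP3CC was singled out with its values known, and the difference between both genes was not tested.

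Each vitrified group was then set against fresh oocytes, comparisons that all share the same 3 fresh libraries. Only the 6 members that passed the filter on low counts could be called, and 0 of 6 were called by edgeR in any of them. In all vitrified oocytes against fresh ones the share called over all tested genes was 0.509%. It was 0.474% for helium 5.6 M, 0.628% for helium 6.6 M, 0.0118% for nitrogen 5.6 M and 0.0474% for nitrogen 6.6 M. At an unadjusted p under 0.05, edgeR counted 0 members for all vitrified oocytes, 1 for helium 5.6 M, 1 for helium 6.6 M, 0 for nitrogen 5.6 M and 0 for nitrogen 6.6 M. Over all tested genes that share was 13.6% for all vitrified oocytes, 14.1% for helium 5.6 M, 15.4% for helium 6.6 M, 6.74% for nitrogen 5.6 M and 8.23% for nitrogen 6.6 M, so 0 or 1 of 6 is near the background. DESeq2 called 1 member for helium 6.6 M, which was PPP3CA, where it called 3.31% of all tested genes. It called 0 members in the other 4, where the shares over all tested genes were 2.26% for all vitrified oocytes, 2.89% for helium 5.6 M, 0.379% for nitrogen 5.6 M and 0.817% for nitrogen 6.6 M. DESeq2 gave no adjusted p for STIM1 and PPP3CA with nitrogen 5.6 M, nor for ITPR2, STIM1 and PPP3CA with nitrogen 6.6 M. These members could therefore not be called by DESeq2 there. The log2 fold change of PPP3CA against fresh oocytes was -0.88 with helium 5.6 M (SE 0.30, edgeR adjusted p = 0.173) and -1.04 with helium 6.6 M (SE 0.30, edgeR adjusted p = 0.112; DESeq2 adjusted p = 0.0413). For PPP3CA it was -0.05 with nitrogen 5.6 M (SE 0.31) and 0.05 with nitrogen 6.6 M (SE 0.30).

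None of the other 5 tested members was called against fresh oocytes, and the 95% interval of each of their fold changes held 0. ITPR1 lay at 0.28 with helium 5.6 M (SE 0.25) and 0.03 with helium 6.6 M (SE 0.25), and at -0.27 with nitrogen 5.6 M (SE 0.26) and -0.17 with nitrogen 6.6 M (SE 0.25). ITPR2 ranged from 0.03 with helium 5.6 M (SE 0.28) to -0.31 with nitrogen 6.6 M (SE 0.29). STIM1 was below fresh in all 4 vitrified groups, between -0.52 with helium 6.6 M (SE 0.39) and -0.65 with nitrogen 6.6 M (SE 0.42), and these 4 values share the high fresh library 2. ATP2A2 reached its lowest value with helium 6.6 M, at -0.34 (SE 0.19, edgeR adjusted p = 0.409), and CAMK2G stayed between -0.13 and 0.12. Between helium and nitrogen, 1 of 6 tested members was called by edgeR and 2 had an unadjusted p under 0.05, PPP3CA and ITPR1, beside 16% of all tested genes. The log2 fold change of helium over nitrogen was 0.22 for ITPR2 (SE 0.19), -0.21 for ATP2A2 (SE 0.13), 0.04 for STIM1 (SE 0.28) and -0.04 for CAMK2G (SE 0.19).

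**Figure D3:**
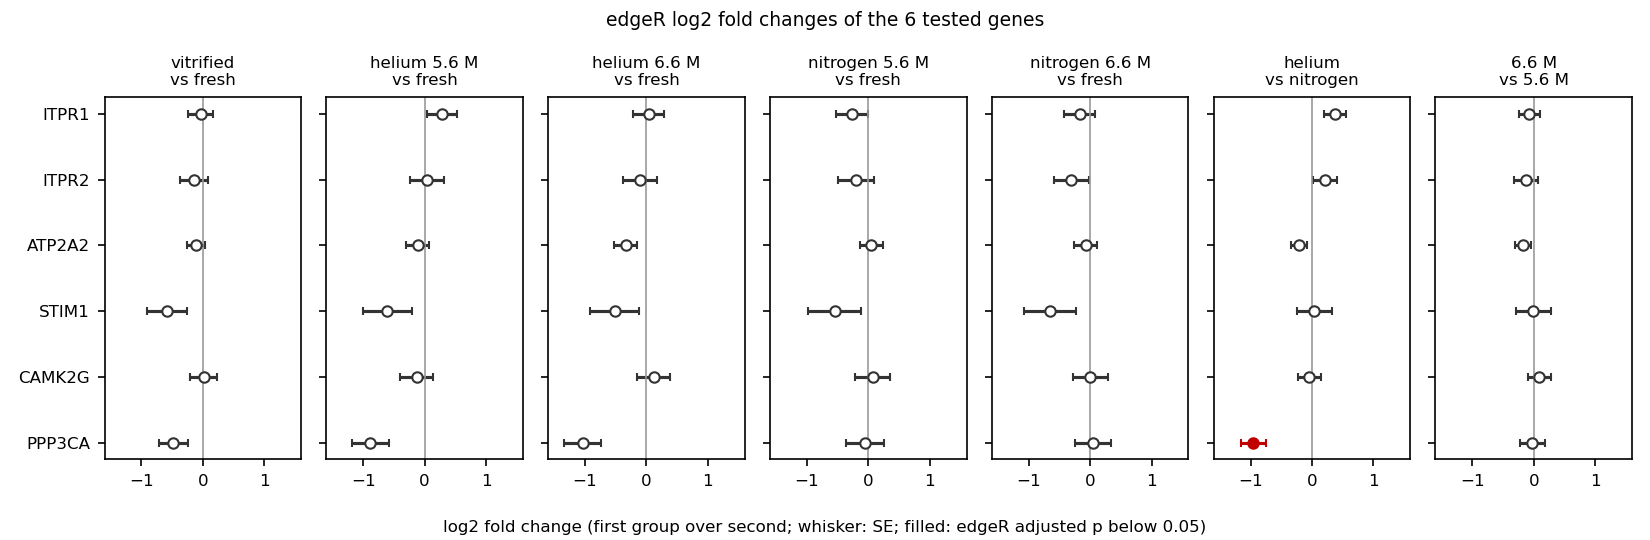
Log2 fold changes (x axis, first-named group over second) with their SE for the 6 tested genes (y axis) in 7 comparisons, 1 per panel; a filled red point marks an edgeR adjusted p below 0.05. PPP3CA in helium against nitrogen (-0.96) is the 1 filled point, and its values against fresh oocytes are -0.88 and -1.04 in the helium panels but -0.05 and 0.05 in the nitrogen panels.

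The concentration of the cryoprotective agent and its combination with the coolant were tested in the same fit. No member was called by edgeR or DESeq2 between 6.6 M and 5.6 M (0% of all tested genes) or for the interaction of coolant and concentration (0% as well), and at an unadjusted p under 0.05 edgeR counted 0 members in both, beside 2.24% and 2.1% of all tested genes. PPP3CA differed by -0.03 between 6.6 M and 5.6 M (SE 0.20) and ATP2A2 by -0.17 (SE 0.13), with 95% intervals of -0.45 to 0.40 and -0.45 to 0.10. Interaction values ran from -0.34 for ITPR1 (SE 0.35) to 0.32 for CAMK2G (SE 0.38).

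Other genes of calcium handling were described from a list of 135 names in 14 roles, of which 123 rows were in the table and 64 passed the filter. Between helium and nitrogen 1 of these 64 was called, PPP3CA, lower in helium. Of the 64, 13 had an unadjusted p under 0.05 (16% of all tested genes did), and DESeq2 called 4 (3.19% of all tested genes). The median log2 fold change of the 64 was 0.04, beside 0.03 over all 8441 tested genes. In every other comparison edgeR called 0 of the 64. Between vitrified and fresh oocytes 19 of 64 lay above 0, beside 46.5% of all tested genes, with a median of -0.08, beside -0.03. Of the 64, 5 had an unadjusted p under 0.05 (13.6% of all tested genes), and DESeq2 called 0 (2.26% of all tested genes).

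**Figure D4:**
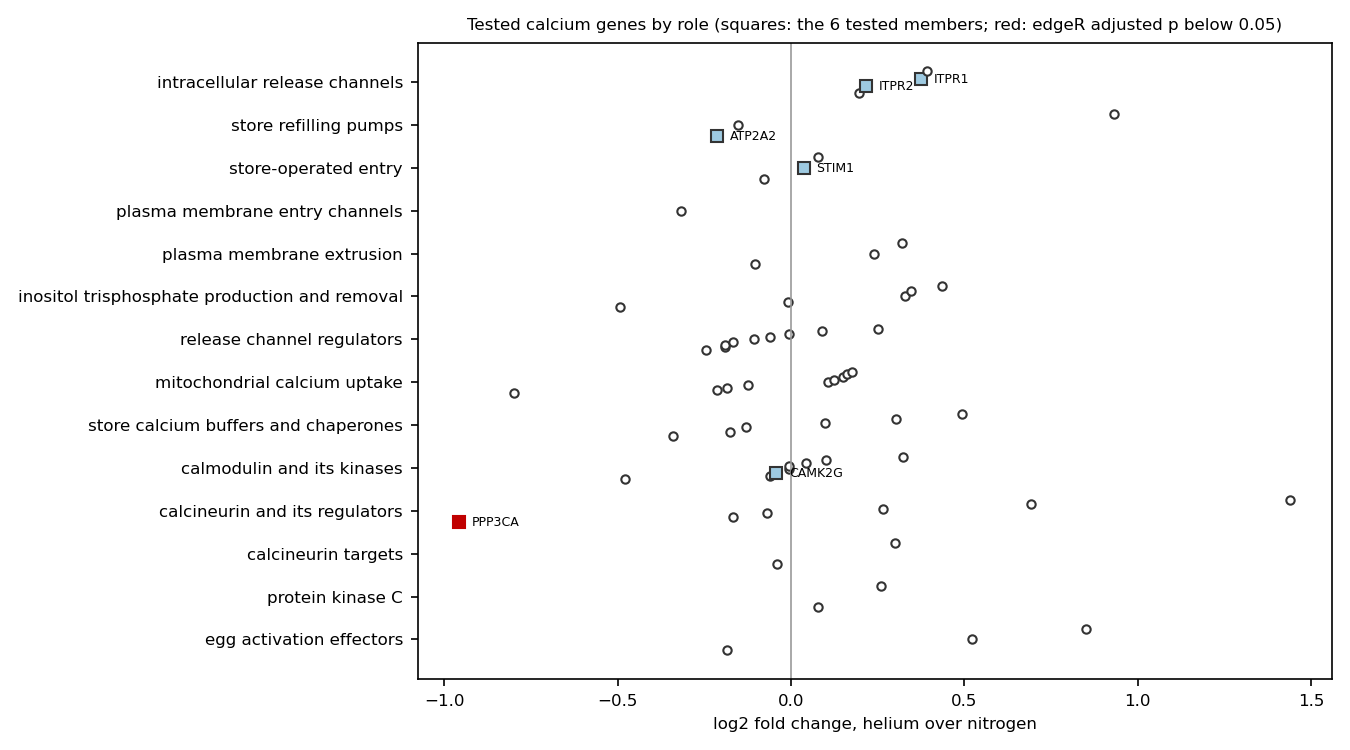
Log2 fold changes of helium over nitrogen (x axis) for the 64 tested calcium genes by role (y axis); squares are the 6 tested members, circles the other 58 genes, and red marks an edgeR adjusted p below 0.05. PPP3CA at -0.96 is the 1 red symbol, and the 4 tested release channel genes all lie above 0.

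By role, the 4 tested release channel genes lay above 0 in helium relative to nitrogen (median 0.30), beside 53.4% of all tested genes, although ITPR2 turned to -0.11 with the depth term. The 2 tested protein kinase C genes lay above 0 as well (median 0.17). Higher medians were those of the egg activation effectors (0.52, 2 of 3 above 0) and of inositol trisphosphate production and removal (0.33, 3 of 5 above 0). These 2 roles had 2 and 4 genes at an unadjusted p under 0.05 by edgeR, beside 16% of all tested genes. Of the 9 release channel regulators 2 lay above 0 (median -0.11), and of the 3 store refilling pump genes 1 did (median -0.15). Of the 6 tested genes of calcineurin and its regulators 3 lay above 0, and PPP3CA was the 1 that passed. Genes outside the members with the smallest p between vitrified and fresh oocytes were given by rule, and none passed. ERP44, an endoplasmic reticulum protein that restrains ITPR1, stood at 159 ± 39.1 FPKM in vitrified libraries (n = 12) and 247 ± 57.6 in fresh ones (n = 3), with a log2 fold change of -0.69 (SE 0.20, edgeR adjusted p = 0.123). INPP1, a phosphatase that breaks down inositol phosphates, stood at 190 ± 37.0 FPKM in vitrified and 139 ± 46.1 in fresh libraries (0.46, SE 0.16, edgeR adjusted p = 0.21). CAMK2D, the delta subunit of the kinase, stood at 6.42 ± 1.68 FPKM in vitrified and 4.05 ± 0.581 in fresh libraries (0.64, SE 0.24, edgeR adjusted p = 0.247).

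The calcineurin inhibitor gene CABIN1 stood at 0.505 ± 0.286 FPKM in vitrified and 1.02 ± 0.775 in fresh libraries, and the kinase gene CAMK1 stood at 4.39 ± 1.13 FPKM in vitrified and 6.93 ± 3.39 in fresh libraries. AHCYL1, which encodes a protein that competes with inositol trisphosphate at its receptor, stood at 5.50 ± 1.12 FPKM in vitrified and 7.07 ± 1.36 in fresh libraries. NFATC2, a transcription factor that calcineurin dephosphorylates, stood at 2.60 ± 0.893 FPKM in vitrified and 1.68 ± 0.569 in fresh libraries. MCUR1, a regulator of the mitochondrial calcium uniporter, stood at 13.1 ± 5.59 FPKM in vitrified and 17.2 ± 4.49 in fresh libraries. Adjusted p-values of these 5 genes lay between 0.314 and 0.445 by edgeR. MCUR1 stood at 9.93 ± 2.97 FPKM in helium and 16.2 ± 6.04 in nitrogen libraries (n = 6 each) and did not pass there either (log2 fold change -0.80, SE 0.21, edgeR adjusted p = 0.0731).

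STIM1 and CAMK2G shared their highest libraries on the FPKM scale, whatever the group. The 4 libraries with the most STIM1 FPKM were also the 4 with the most CAMK2G: helium 6.6 M library 2, nitrogen 5.6 M library 3, nitrogen 6.6 M library 1 and fresh library 2. On the TMM scale, fresh library 3 was also among the highest for CAMK2G. Among the 15 pairs of tested members, on log2 TMM-scaled CPM over 15 libraries, 0 pairs passed after Benjamini-Hochberg adjustment by Pearson or by Spearman. For STIM1 and CAMK2G Pearson's r was 0.44 (permutation p = 0.0984, adjusted p = 0.492) and Spearman's rho 0.63 (permutation p = 0.0132, adjusted p = 0.0662). Pearson's r was 0.49 without the 2 libraries farthest from the median of STIM1, 0.86 in the 7 deeper and 0.34 in the 8 shallower libraries. Among the 7 deeper ones, helium 6.6 M library 2 had the most of both genes, 16.3 CPM of STIM1 and 46.8 CPM of CAMK2G. The 7 were not tested without it. For ITPR1 and PPP3CA r was -0.67 (permutation p = 0.00592, adjusted p = 0.0888) and rho -0.72 (permutation p = 0.00334, adjusted p = 0.0501). That r was -0.53 without the 2 libraries farthest from the median of ITPR1, -0.78 in the 7 deeper and -0.60 in the 8 shallower libraries. Of the 7, only nitrogen 6.6 M library 3 was not from helium. On the TMM scale it had the least ITPR1 (21.3 CPM) and the most PPP3CA (20.6 CPM). Helium libraries held 27.7 to 45.6 CPM of ITPR1 and 6.35 to 10.5 CPM of PPP3CA. The pair was not tested within helium alone, nor was the part of coolant in these values.

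**Figure D5:**
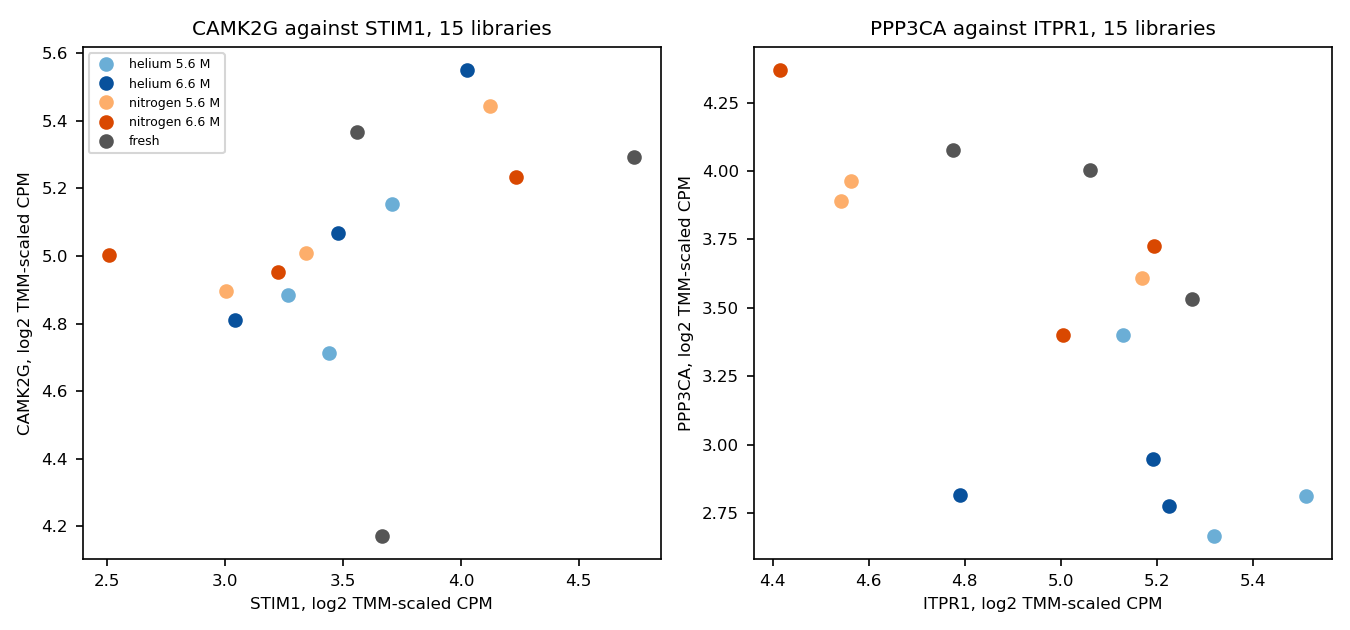
CAMK2G against STIM1 (left) and PPP3CA against ITPR1 (right) in the 15 libraries, both axes in log2 TMM-scaled CPM and points coloured by group. The left cloud runs upward (r 0.44) and the right one downward (r -0.67), and neither passed after adjustment over the 15 pairs.

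Genes with the pattern most like a member were taken by Pearson's r of log2 TMM-scaled CPM over 15 libraries, which share their groups and depth classes. For PPP3CA they were YES1 (r 0.95), ATP5S (r 0.94) and GOLPH3 (r 0.94). They were TEX2 (r 0.94), GCLC (r 0.91) and ARFGEF2 (r 0.89) for ITPR1, and WDR91 (r 0.81), EXOC1 (r 0.81) and SEC24B (r 0.80) for ITPR2. For ATP2A2 they were CANX (r 0.84), which encodes the calcium-binding chaperone calnexin of the same store, KLHL15 (r 0.84) and SACM1L (r 0.80). STIM1 was most like YIPF2 (r 0.95), SAE1 (r 0.94) and LLGL2 (r 0.94). CAMK2G was most like POLE4 (r 0.93), UBTD1 (r 0.92) and ASB11 (r 0.90).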

How the data were processed

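RNA sequencing of bovine oocytes was analysed from 1 table. Unscaled whole-number counts per gene were deposited, as the file headers name them. The authors also deposited FPKM values, and all 180473 values with a count above 0 were proportional to count over gene length and library total within 0.1 percent. HISAT2 2.0.4, StringTie 1.3.0 and build UMD3.1 are named, with no role, per the submitters' processing notes. Whether strand was used in counting is not stated in the labels. None of the 8 gene spans overlapped another row of the table.

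Genes were kept by filterByExpr (8441) and fitted in R 4.3.3 with edgeR 4.0.16 as 5 group means, TMM scaling and a robust quasi-likelihood test, with Benjamini-Hochberg adjustment over all tested genes and a threshold of 0.05. SE is the log2 fold change over the root of its F statistic, and intervals use the same fit. limma 3.58.1 was loaded by edgeR. DESeq2 1.42.0, RLE size factors, no filter, a depth term, a replicate block, only the groups compared, and each library left out in turn were alternatives. Library totals (1601519 to 8569618) limit precision most for ITPR3 and ORAI1.

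Members and gene lists were chosen with earlier results of these data known. Named were all members, list genes that passed, and the 8 other list genes with the smallest p between vitrified and fresh oocytes where fewer passed. Values at 95% are confidence intervals. Likeness is the Pearson correlation of log2 CPM (prior count 1). Deviations of same-numbered libraries from their group means correlated over 0.1 in all 3 pairs of helium 6.6 M and fresh (0.137, 0.296 and 0.214), as measured here and not stated in the labels, and in no other pair of groups with 3 shared numbers. Chi-square tests between libraries of a group gave 5.52 to 30.0 per degree of freedom, far beyond sampling noise.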

Additional observations from a re-analysis of the deposited data

Results flagged for a closer look

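PPP3CA is listed because the change relative to fresh oocytes differed between the coolants by the test of that difference itself: the log2 fold change of helium over nitrogen was -0.96 (SE 0.20, edgeR adjusted p = 0.0296), with 6 of 6 helium libraries below every fresh library and 1 of 6 nitrogen libraries inside the fresh range. Nitrogen 5.6 M library 3 and nitrogen 6.6 M libraries 1 and 2, at 4.98, 5.56 and 4.23 FPKM, also lay below every fresh library (5.94 to 6.37). Depth moved with the coolant. The 1 deep nitrogen library held 8.50 FPKM at a depth where the 6 helium libraries held 2.78 to 4.81. The part of depth in this difference was not tested beyond the depth term given with the result. No group had more than 3 libraries, so none could be screened for single outlying libraries.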

How the results depend on the processing

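Depth limits ITPR3 and ORAI1 most, and PPP3CA rests on 21 to 40 counts in each shallow nitrogen and fresh library. RLE size factors changed no count of calls. Among log2 fold changes under the alternatives that kept every library, 247 kept direction and side of the threshold, 20 reversed, 1 passed anew and 2 no longer passed. The cause of these changes was not tested.

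Calls among the 64 calcium genes by DESeq2 numbered 3 for helium 5.6 M against fresh (MCUR1, INPP1 and ERP44), 2 for helium 6.6 M (PPP3CA and INPP1, so 1 member) and 4 between helium and nitrogen (WEE2, ASTL, PPP3CA and MCUR1). Without a filter, where 114 list genes were tested, the calls numbered 1 (ERP44) for vitrified against fresh, 1 for helium 5.6 M (ERP44), 1 for helium 6.6 M (HOMER3) and 5 between helium and nitrogen (WEE2, RCAN1, ASTL, PPP3CA and MCUR1). Against fresh oocytes, the share called over all genes without a filter is not given here. Those counts therefore cannot be set against a background. With only the groups compared they numbered 4 between helium and nitrogen (WEE2, ASTL, PPP3CA and MCUR1). With the depth class as a term, 0 members and 0 calcium genes were called between helium and nitrogen. The replicate block also lost the PPP3CA call, but numbers 4 and 5 occur only in helium 5.6 M, so that group rested on library 3. Over all tested genes, the 56 calls between helium and nitrogen became 269 by DESeq2, 344 without a filter, 308 with only the groups compared and 13 with the depth term.

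The depth term rests on nitrogen 6.6 M library 3, the 1 deep library outside helium. For PPP3CA in nitrogen 6.6 M against fresh it gave -0.324, beside -0.323 in the fit without that library. With the depth term these log2 fold changes reversed, and the part of depth itself was not tested. Vitrified against fresh gave ITPR1 0.37 and ATP2A2 0.17. Helium 5.6 M gave ITPR2 -0.39, ATP2A2 0.40 and CAMK2G 0.036, and helium 6.6 M gave ATP2A2 0.17. Nitrogen 6.6 M gave ITPR1 0.052, ATP2A2 0.079 and PPP3CA -0.32. Helium against nitrogen gave ITPR2 -0.11, ATP2A2 0.22 and CAMK2G 0.095. The concentrations gave ITPR1 0.039 and STIM1 0.059, and the interaction ITPR2 0.16 and PPP3CA 0.12. The replicate block turned CAMK2G to -0.021 (vitrified against fresh), ITPR1 to 0.0013 (concentrations) and PPP3CA to -0.020 (nitrogen 6.6 M). With only the groups compared CAMK2G was -0.00061 in nitrogen 6.6 M. The block changed no other member call. Whether library numbers pair libraries is not known. Deviations correlated over 0.1 for all 3 numbers in helium 6.6 M and fresh alone, but nitrogen 6.6 M and fresh reached 0.404 for number 3.

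Leaving out 1 library gave 0 to 2 calcium genes for helium 5.6 M against fresh, 0 to 3 with 0 to 1 members for helium 6.6 M, and 0 to 1 with 0 to 1 members between helium and nitrogen. The 2 and the 3 came from the fit without fresh library 2. The share called over all genes in these fits is not given here, so the counts cannot be set against a background. PPP3CA passed in helium 6.6 M against fresh without fresh library 2 (-1.21, edgeR adjusted p = 0.0334). Between helium and nitrogen, adjusted p of PPP3CA by edgeR was 0.127 and 0.0828 without helium 5.6 M libraries 4 and 5, 0.0947, 0.0607 and 0.0685 without helium 6.6 M libraries 1, 2 and 3, 0.0850 and 0.0821 without nitrogen 5.6 M libraries 1 and 2, and 0.137 without nitrogen 6.6 M library 3.

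Fold changes that reversed without a library had these ranges. Vitrified against fresh: ITPR1 -0.15 to 0.086, ITPR2 -0.26 to 0.12, CAMK2G -0.22 to 0.23. Helium 5.6 M: ITPR2 -0.082 to 0.27, CAMK2G -0.38 to 0.087. Helium 6.6 M: ITPR1 -0.082 to 0.16, ITPR2 -0.30 to 0.15, CAMK2G -0.12 to 0.33. Nitrogen 5.6 M: ITPR2 -0.31 to 0.091, ATP2A2 -0.033 to 0.18, CAMK2G -0.14 to 0.29, PPP3CA -0.22 to 0.086. Nitrogen 6.6 M: ITPR1 -0.34 to 0.053, ATP2A2 -0.22 to 0.080, CAMK2G -0.23 to 0.22, PPP3CA -0.32 to 0.25. Helium against nitrogen: STIM1 -0.13 to 0.28, CAMK2G -0.16 to 0.033. Concentrations: ITPR1 -0.15 to 0.038, STIM1 -0.24 to 0.16, CAMK2G -0.026 to 0.17, PPP3CA -0.21 to 0.11. Interaction: ITPR2 -0.23 to 0.16, ATP2A2 -0.26 to 0.056, STIM1 -0.12 to 0.67, PPP3CA -0.41 to 0.11.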
